A study of Bos taurus with 6 samples.

Results

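The genes described here encode the activin subunits, their secreted binding proteins and their cell-surface receptors. Activins are ligands of the TGF-β superfamily. Activin A is a dimer of the βA subunit, which INHBA encodes, and activin B is a dimer of the βB subunit of INHBB. A β subunit joined to the α subunit of INHA makes an inhibin, which opposes activins. Follistatin (FST) and follistatin-like 3 (FSTL3) are secreted proteins that wrap around activins and keep them from their receptors. An activin binds a type II receptor (ACVR2A or ACVR2B), which recruits and phosphorylates a type I receptor, chiefly ACVR1B, and the complex then activates SMAD2 and SMAD3, the same SMADs that TGF-β activates. ACVR1 is a type I receptor used mainly by bone morphogenetic proteins (BMPs), and activin A can also bind it without signalling. Chondrocytes can make activin A themselves.

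Members were chosen by gene symbol, from a list of 10 genes that was itself selected on the difference between TGF-β and untreated arrays. Of these, 7 had a probe set with their symbol alone in the array annotation, and they had 8 probe sets among the 24016 tested. INHBA, INHA, FST, FSTL3, ACVR2A and ACVR2B had 1 probe set each and ACVR1 had 2. INHBB, FSTL1, a more distant relative of follistatin, and ACVR1B had none with their name and were not analysed here. Since the list was chosen on the treatment difference, the values of its genes in that comparison are given as a description.

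Articular chondrocytes from the metacarpal-phalangeal joints of cattle, collected at an abattoir, were grown as micromass cultures, high-density spots in which the cells lay down cartilage matrix. After a night in low-serum medium, 3 cultures received TGF-β1 at 5 ng/ml and 3 untreated cultures received vehicle, each over 8 hours. Cartilage of 3 cows was used, with and without TGF-β. The arrays are numbered 1 to 3 in both groups, and the labels give no genotype, breed, age or cow for a number. Cells were released from full-thickness cartilage slices, so all depths of the tissue are mixed, and in such bulk samples fewer cells of a type and less RNA per cell cannot be told apart.

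Every value is a log2 signal centred on the median of that probe set over the 6 arrays. A value of 1 is therefore a signal 2 times the median of the 6 arrays, and the level of a gene, or its order among genes, cannot be read. For the same reason the presence of chondrocyte markers could not be checked. The precision is limited by 3 arrays per group. The arrays of replicate 3 stood apart. Over 4 measured genes of dividing cells (CCNB1, CDK1, BUB1 and CCNA2), the median was 2.89 and 2.98 on its untreated and TGF-β arrays, against -0.52 to 0.06 on the other 4. Of 7 measured chondrocyte markers, 6 were lower in replicate 3, with a median difference of -0.66 log2 units from the mean of replicates 1 and 2. Bacterial transcripts that are added to each sample as controls were bright on the TGF-β array of replicate 2, with a median of 1.53 over 18 probe sets, where the other arrays ranged from -0.17 to 0.06. INHBA and FSTL3 had mean differences of 2.60 and 1.37 log2 units without replicate 2, close to those with it.

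**Figure D1:**
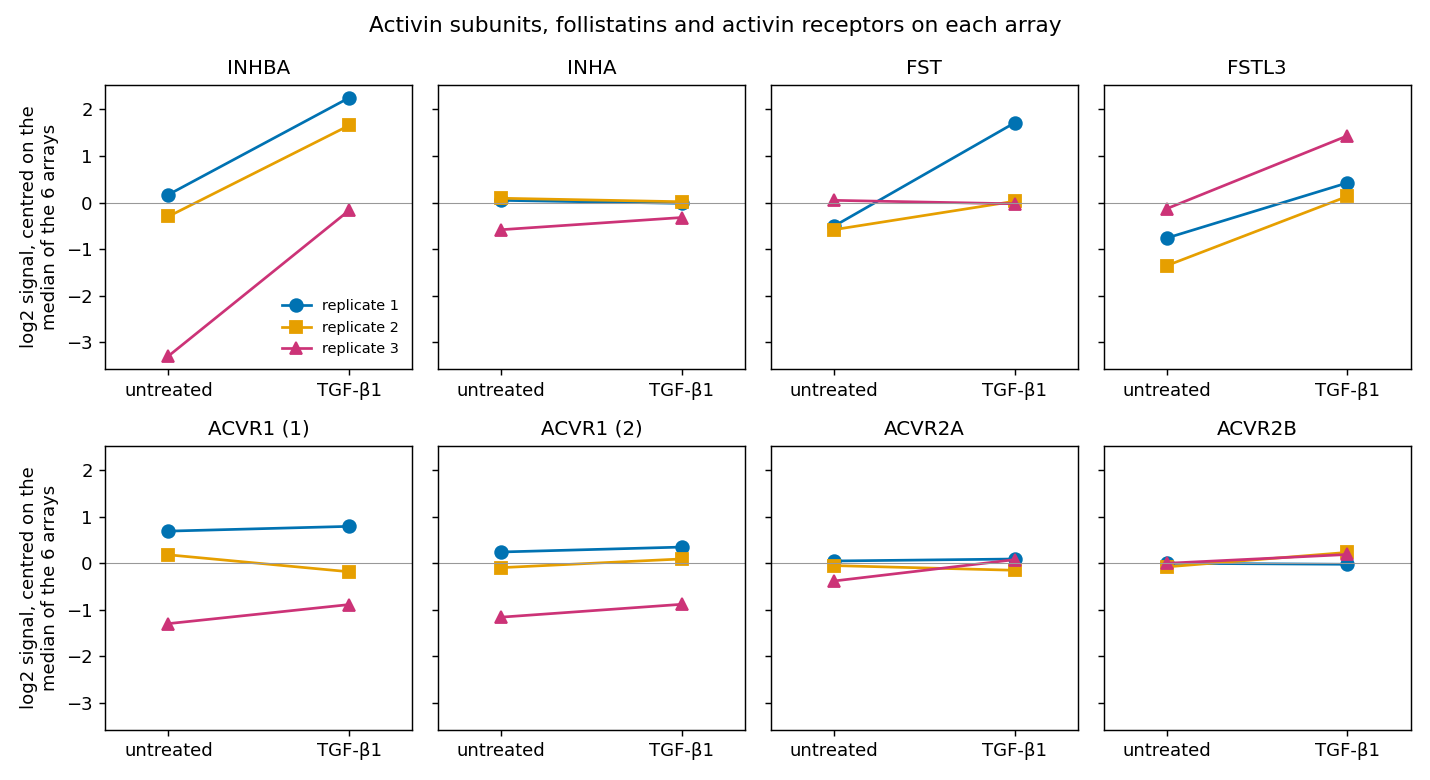
Centred log2 signal of the 8 probe sets on the untreated and TGF-β1 arrays, with a line joining the 2 arrays of each replicate (colour and symbol). All lines of INHBA and FSTL3 climb, the FST lines climb in replicates 1 and 2, and both ACVR1 probe sets lie lowest in replicate 3.

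The activin βA gene had the largest difference of the group. INHBA (Bt.12760.1.S1_at) had values of 0.17, -0.30 and -3.29 on the untreated arrays of replicates 1, 2 and 3, and of 2.25, 1.65 and -0.17 on their TGF-β arrays. Within every replicate the TGF-β array was far higher, but the groups overlapped, because the TGF-β array of replicate 3 lay below the untreated array of replicate 1. The paired differences, TGF-β minus untreated, were 2.08, 1.95 and 3.12 log2 units, with a mean of 2.38 ± 0.64 (SD, n = 3 pairs), a 5.22-fold higher signal. By this mean, INHBA ranked 10 from the top among 24016 probe sets. The replicate that started lowest had the largest increase, and its treated culture only came near the untreated cultures of the other replicates.

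INHA (Bt.4897.1.S1_at), the inhibin α subunit gene, had small differences. Its values were 0.05, 0.09 and -0.58 in untreated cultures and -0.02, 0.02 and -0.32 with TGF-β. The paired differences were -0.06, -0.07 and 0.26, with a mean of 0.04 ± 0.19 (SD, n = 3 pairs). The difference of INHBA exceeded that of INHA by 2.14, 2.03 and 2.86 log2 units in replicates 1, 2 and 3. The 2 subunit genes, whose products join to make inhibin A, thus had unequal differences in each replicate.

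Both follistatin genes were higher on average, in different ways. FSTL3 (Bt.5268.1.S1_at) had values of -0.76, -1.35 and -0.13 in untreated cultures and of 0.42, 0.13 and 1.43 with TGF-β. Its groups did not overlap, and its lowest TGF-β array was above its highest untreated array. Of the 8 probe sets, 1 was higher without overlap and 0 were lower, against 6.11% and 4.91% of all probe sets. Its paired differences of 1.18, 1.49 and 1.56 log2 units were close to one another, with a mean of 1.41 ± 0.20 (SD, n = 3 pairs), or 2.66-fold, and a rank of 63 from the top.

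FST (Bt.405.1.S1_at), in contrast to FSTL3, had paired differences that varied widely from replicate to replicate. Its values were -0.51, -0.58 and 0.05 in untreated cultures and 1.71, 0.03 and -0.03 with TGF-β. The TGF-β array of replicate 1 stood high and the other TGF-β arrays lay near the untreated value of replicate 3. The paired differences were 2.22, 0.61 and -0.07 log2 units, with a mean of 0.92 ± 1.18 (SD, n = 3 pairs). This SD was larger than that of 99.9% of all probe sets and ranked 20 from the top, where the median probe set had an SD of 0.18. The SD of INHBA was also large, above that of 98.9% of all probe sets, and that of FSTL3 was above 57.1%. Without replicate 1 the mean difference was 0.27, and without replicate 3 it was 1.41. With 1 pair of arrays per number, a difference in response between replicates could not be tested.

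The differences of the ligand gene and of its inhibitors are set side by side here, as log2 differences of signal within the same pair of arrays. Levels are unknown in centred values, and different probe sets need not follow RNA amounts equally. The gaps below are therefore between signals, and not between amounts of ligand and inhibitor. The difference of INHBA minus that of FST was -0.14 log2 units in replicate 1. In replicates 2 and 3, the difference of INHBA exceeded that of FST by 1.34 and 3.20 log2 units. Against FSTL3, the difference of INHBA was larger by 0.89, 0.47 and 1.56 log2 units in replicates 1, 2 and 3. The excess over FSTL3 was thus present in every replicate and that over FST in replicates 2 and 3. Both excesses were largest in replicate 3.

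**Figure D2:**
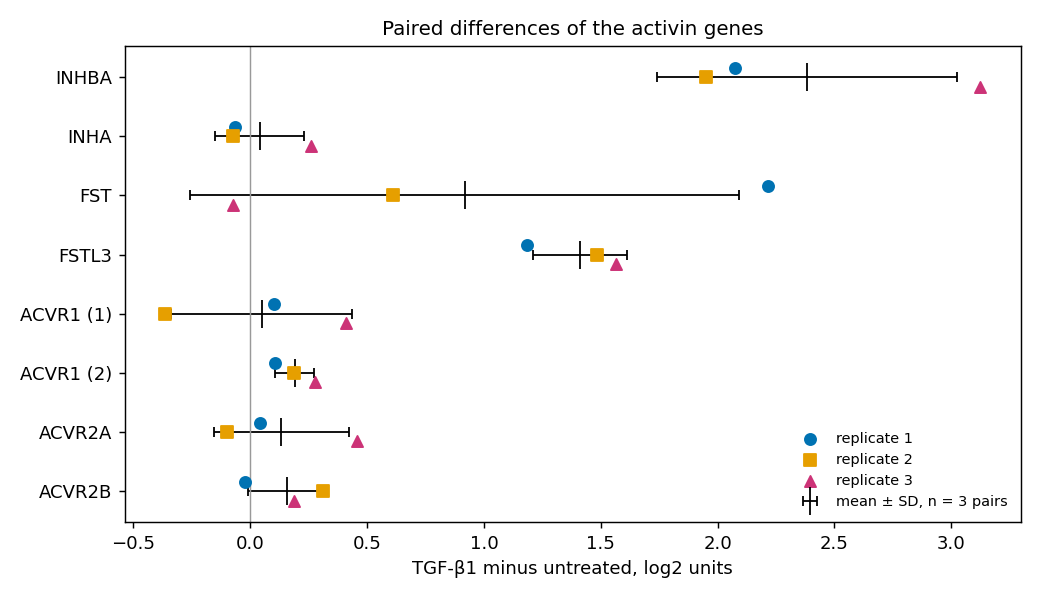
Difference between the TGF-β1 and the untreated array of each replicate (points, log2 units) for the 8 probe sets, with the mean and SD of the 3 pairs (black). INHBA and FSTL3 lie above 1 in every replicate, FST is spread from -0.07 to 2.22, and INHA and the receptors lie within 0.5 of 0.

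The receptor genes had small differences. For ACVR1, the first probe set (Bt.16020.1.A1_at) had values of 0.69, 0.18 and -1.29 in untreated cultures and of 0.79, -0.18 and -0.89 with TGF-β. The second (Bt.16020.1.A2_at) had 0.24, -0.09 and -1.16, and then 0.35, 0.09 and -0.88. On both, the arrays of replicate 3 were low and the groups overlapped. The mean paired difference was 0.05 ± 0.39 (SD, n = 3 pairs) on the first, where replicate 2 was lower with TGF-β by 0.36. It was 0.19 ± 0.09 (SD, n = 3 pairs) on the second, where all 3 pairs were higher.

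The type II receptor gene ACVR2A (Bt.513.1.S1_at) had values of 0.05, -0.05 and -0.38 in untreated cultures and of 0.09, -0.15 and 0.08 with TGF-β. Its differences of 0.04, -0.10 and 0.46 had a mean of 0.13 ± 0.29 (SD, n = 3 pairs), to which replicate 3 contributed most. ACVR2B (Bt.4990.1.S1_at), the other type II receptor gene, had 0.00, -0.08 and 0.00 untreated and -0.02, 0.23 and 0.19 with TGF-β. Its mean difference was 0.16 ± 0.17 (SD, n = 3 pairs), with replicate 1 slightly below 0. For each receptor probe set except the second of ACVR1, the mean was smaller than the SD over the pairs.

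In limma's paired fit over all 24016 probe sets, with Benjamini-Hochberg adjustment, INHBA and FSTL3 had an adjusted p under 0.05, and both were higher with TGF-β. All 3 pairs were higher in 3 of the 8 probe sets (INHBA, FSTL3 and the second of ACVR1), and in 20.6% of all probe sets. The calls make 2 of 8 probe sets higher and 0 lower, where 2.44% of all probe sets were called higher and 3.46% lower. As the genes were selected on this comparison, nothing is read from that count. The other 6 probe sets were not called, and the median difference of all 8 was 0.17, against 0.01 over all probe sets. Without replicate 3, FST would also be called, but that fit rests on replicates 1 and 2 alone, whose differences were 2.22 and 0.61. The fit on the groups alone called 0 of the 24016 probe sets, with 1377 at an unadjusted p under 0.05, 1 of them (FSTL3) among the 8. With the same Benjamini-Hochberg adjustment, the unequal-variance test of the study's methods also called 0. It had 1032 at an unadjusted p under 0.05, 0 of them among the 8. Neither INHBA nor FSTL3 thus passed it even without adjustment. The study itself listed genes at a p under 0.05 with at least a 2-fold difference and describes no such adjustment. The count of 0 is therefore not the study's own result.

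The replicate number gives a comparison whose estimates, in this balanced design, do not depend on the treatment difference that the choice of genes used. Its test shares the residual spread of the treatment test, and genes and tests were chosen with earlier results of these data known. The replicate number was tested with limma's F test over the 3 numbers, with treatment in the model. INHBA, INHA, FSTL3 and both probe sets of ACVR1 passed, which is 5 of 8, where 27.5% of all probe sets did. INHBA had replicate means (over the untreated and TGF-β array of each number) of 1.21, 0.68 and -1.73, with an adjusted p of 0.000144 by limma's F test. The contrast of replicate 3 with the others was chosen after the values were seen. For INHBA, replicate 3 minus the mean of replicates 1 and 2 was -2.67 log2 units (SE 0.218). This ranked 21 from the lowest among all probe sets. FSTL3 ran the other way, with means of -0.17, -0.61 and 0.65 (adjusted p = 0.000892, limma's F test), and lay 1.04 log2 units (SE 0.125) higher in replicate 3. By replicate mean, and on the arrays within each treatment group, INHBA was thus lowest and FSTL3 highest in replicate 3. Across the groups, single arrays did not keep this order. INHBA was higher on the TGF-β array of replicate 3 (-0.17) than on the untreated array of replicate 2 (-0.30). FSTL3 was lower on the untreated array of replicate 3 (-0.13) than on the TGF-β array of replicate 1 (0.42).

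The first ACVR1 probe set had replicate means of 0.74, 0.00 and -1.09 (adjusted p = 0.000467, limma's F test), and the second had 0.30, 0.00 and -1.02 (adjusted p = 0.000352, limma's F test). Both thus gave the same order of the replicates. INHA had means of 0.01, 0.05 and -0.45, near the threshold (adjusted p = 0.0433, limma's F test). After a further quantile normalization its adjusted p was 0.107, and without replicate 2 it was 0.0521. FST (adjusted p = 0.295), ACVR2A (0.55) and ACVR2B (0.826) did not pass limma's F test. For FST, whose residual spread is large, a difference of replicate 3 from the mean of replicates 1 and 2 was estimated at -0.15 (SE 0.362). Without replicate 3, INHBA (0.0426) and the first ACVR1 probe set (0.0124) kept an adjusted p under 0.05, and FSTL3 (0.0979), the second ACVR1 probe set (0.266) and INHA (0.92) did not.

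Replicate 3 was also where dividing-cell genes had a high signal and most chondrocyte markers were lower. INHBA, INHA and both ACVR1 probe sets were lower there and FSTL3 was higher, while FST, ACVR2A and ACVR2B did not pass limma's F test. Leukocyte and macrophage markers were also lower there, with 0 of 6 above the mean of replicates 1 and 2 and a median difference of -0.25 log2 units, as were osteoblast markers, with 0 of 3 above and a median of -0.22. Of the fibroblast markers 3 of 6 lay above (median 0.03), and of the endothelial markers 2 of 5 did (median -0.002). The part of these genes in the replicate differences was not tested. As a measure of RNA quality, the signal at the 5′ end minus that at the 3′ end was taken over 6 control transcripts of the array. The medians were -0.12 and -0.08 on the arrays of replicate 3 and -0.06 to 0.19 on the others. Single transcripts were spread more widely. On the TGF-β array of replicate 2 they ran from -0.999 (eIF-4E) and -0.52 (actin) to 0.14 (GST). Whether the replicate number stands for a cow, a culture date or a hybridization is not said in the labels, and these cannot be told apart.

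**Figure D3:**
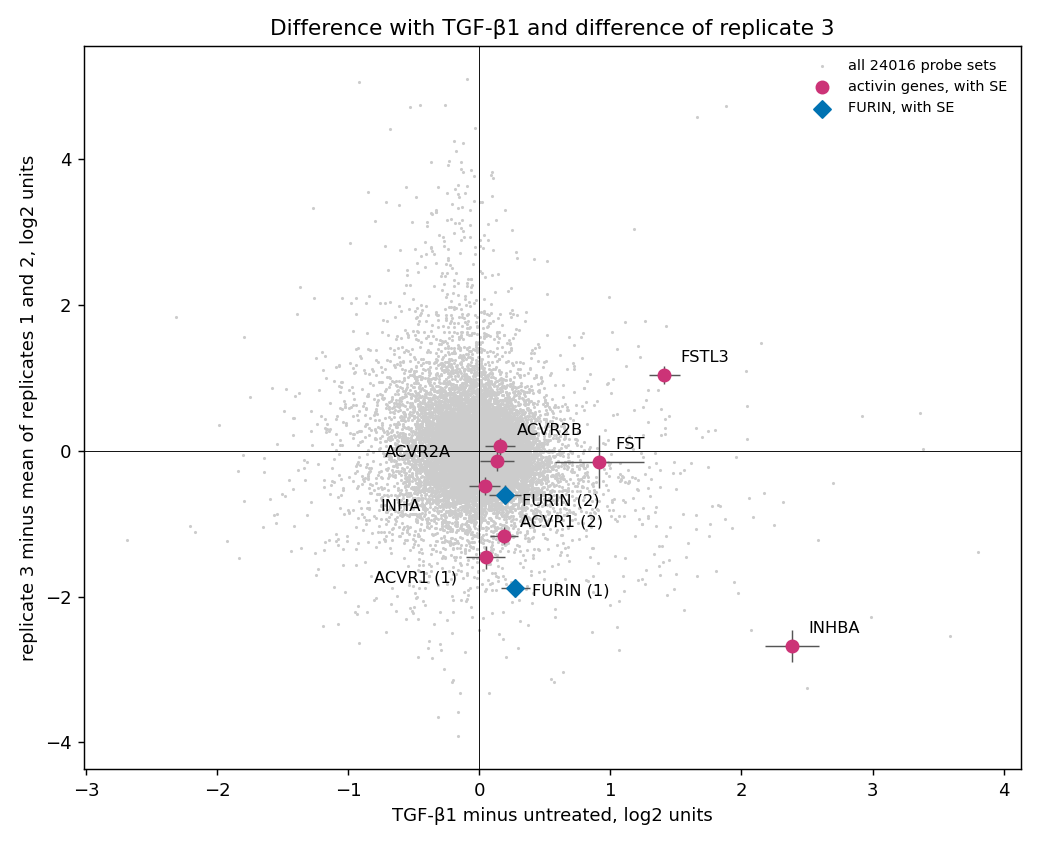
Difference with TGF-β1 (horizontal) against the difference of replicate 3 from the mean of replicates 1 and 2 (vertical), both in log2 units, for all 24016 probe sets (grey), the 8 activin probe sets (pink) and the 2 of FURIN (blue), with limma standard errors. INHBA lies at the lower right, FSTL3 at the upper right, and ACVR1 and FURIN low near the vertical axis.

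Of 33 other symbols listed for the activin pathway, 10 genes were measured, by 15 probe sets. They are the ligand gene MSTN, the co-receptor gene CRIPTO, the receptor genes ACVRL1 and BMPR2, the decoy receptor gene BAMBI, IGSF1, the protease gene FURIN, and SMAD2, SMAD3 and SMAD4. With TGF-β, 0 of the 15 were called higher and 0 were called lower in limma's paired fit. Of all probe sets, 2.44% were called higher and 3.46% lower, so that with 15 probe sets a count of 0 is near the background. The lowest adjusted p was 0.217, and 1 (FURIN) had an unadjusted p under 0.05. Their median difference was 0.09 log2 units, against 0.01 over all probe sets, and the range was -0.20 to 0.32. SMAD2, a receptor-activated SMAD, was lower in each replicate, by 0.03, 0.18 and 0.39 log2 units, with a difference of -0.20 (SE 0.115, adjusted p = 0.396). SMAD4, the partner of the receptor-activated SMADs, had a difference of 0.22 (SE 0.126, adjusted p = 0.407).

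FURIN encodes a convertase that cuts the precursors of activin and of TGF-β to release the mature ligands. Its first probe set (Bt.21338.1.S1_at) had values of -0.08, 0.08 and -1.77 in untreated cultures and of 0.36, 0.34 and -1.64 with TGF-β. The paired differences were 0.44, 0.26 and 0.12, with a mean of 0.27 (SE 0.112) and an adjusted p of 0.217 in limma's paired fit. By replicate number its means were 0.14, 0.21 and -1.71 (adjusted p = 3.93e-05, limma's F test). The second probe set (Bt.4340.1.S1_at) also lay lowest in replicate 3, with means of 0.00, 0.30 and -0.45 (adjusted p = 0.0152, limma's F test). Without replicate 3, neither passed (adjusted p = 0.849 and 0.256), and without replicate 2 the second did not (0.0561). The second probe set of SMAD3, Bt.3523.1.A1_at, had replicate means of 0.00, 0.24 and -0.51 (adjusted p = 0.00769, limma's F test; 0.387 without replicate 3), and the other, Bt.20844.1.A1_at, did not pass (0.783). In all, 3 of the 15 probe sets passed limma's F test, where 27.5% of all probe sets did.

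BMPR2 encodes a type II receptor that binds BMPs and can bind activins, and it had the largest mean of the other pathway genes. Its 3 probe sets had paired differences in replicate 1 of 0.996, -0.07 and 0.80 log2 units. Their differences were -0.12, 0.54 and 0.05 in replicate 2 and 0.08, 0.03 and -0.09 in replicate 3. The probe sets therefore did not give 1 answer for the gene. The means were 0.32 ± 0.59, 0.17 ± 0.33 and 0.25 ± 0.48 (SD, n = 3 pairs), each smaller than its SD, and none was called (adjusted p = 0.429, 0.586 and 0.472).

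**Figure D4:**
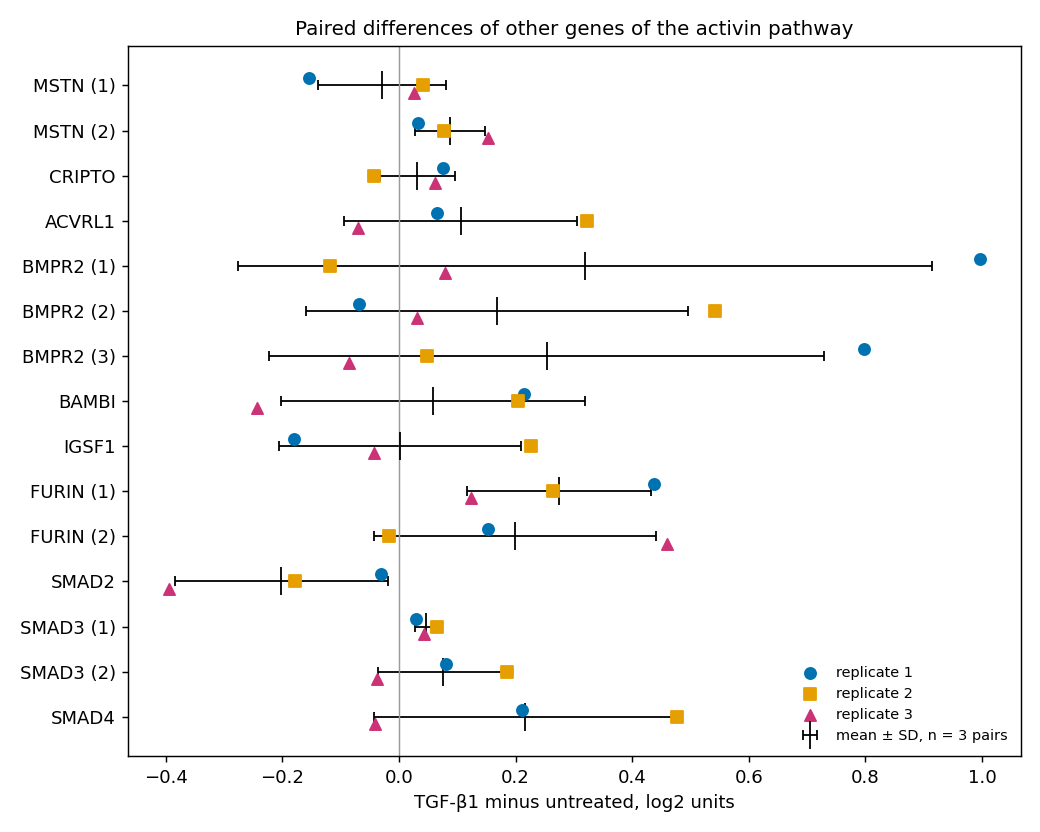
Difference between the TGF-β1 and the untreated array of each replicate (points, log2 units) for the 15 probe sets of 10 other genes of the activin pathway, with the mean and SD of the 3 pairs (black). All means lie between -0.20 and 0.32, and for BMPR2 the probe sets differ within replicate 1.

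Among 9173 genes, taken as means over their probe sets, the 5 whose profile over the 6 arrays was most like that of INHBA were CLDN6, TAB2, ANGPTL2, ATP2B1 and USO1, with Pearson r of 0.994, 0.992, 0.991, 0.990 and 0.985. These correlations are over 6 arrays that share treatment and replicate, and are given as a description. ANGPTL2, whose product is a secreted relative of the angiopoietins, came closest to INHBA in size. Its values were -0.01, -0.44 and -2.79 in untreated cultures and 1.32, 1.37 and 0.01 with TGF-β, so that it too was far lowest in the untreated culture of replicate 3 and had its largest difference there (2.79, against 1.33 and 1.80). CLDN6, TAB2, ATP2B1 and USO1 were also lowest in the untreated culture of replicate 3, with smaller differences. The largest difference was in replicate 3 for CLDN6, TAB2 and ATP2B1 and in replicate 2 for USO1. CLDN6 ran from -0.26 to 0.24 and ATP2B1 from -0.64 to 0.36.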

How the data were processed

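Total RNA of 6 cultures was amplified in 2 cycles and hybridized to Affymetrix Bovine Genome arrays. The authors made the deposited log2 values in GeneSpring by Robust Multichip Average (background subtraction, joint normalization of all arrays, 1 summary value per probe set). In the file the median of each probe set across the 6 arrays is 0 within 5e-07. This removes levels, so no filter on dim signals was possible. Of 24128 probe sets, 112 controls were left out. The array annotation gave 13292 of the rest 1 symbol, 86 several and 10638 none. Symbols were updated by Entrez ID to RefSeq (ARS-UCD2.0) for 13263, and 23 were named from the study's supplementary list, none of them a member.

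Differences are TGF-β minus untreated. The main model in limma 3.58.1 (R 4.3.3; lmFit, eBayes) had treatment and replicate number, with 2 residual degrees of freedom, a prior SD of 0.144 and 2-sided tests adjusted by Benjamini-Hochberg over 24016 probe sets at 0.05. Arrays with the same number deviated together from their group means (r = 0.740, 0.694 and 0.845 across probe sets, against -0.683 to 0.185 for other pairs). Each cow gave treated and untreated cultures in the study, whose own test was unpaired. The functions were tested on simulated data. Alternatives were the fit without the replicate block, the methods' t-test, further quantile normalization, array medians set to 0, robust eBayes, gene means and leaving out each replicate. The genes, lists and tests were chosen with earlier results of these data known. Named are all members with a probe set, other pathway genes that passed a test or had the 4 largest differences, and the 5 genes most like INHBA. The contrast of replicate 3 with the others was chosen after the values were seen. Figures were drawn with matplotlib 3.10.9.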

Additional observations from a re-analysis of the deposited data

How the results depend on the processing

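In the paired fit of limma, INHBA and FSTL3 kept their direction and stayed called after further quantile normalization, with array medians set to 0 and without any replicate, with mean differences of 2.01 to 2.60 and 1.34 to 1.55. Without the replicate block, and by the methods' t-test, both with Benjamini-Hochberg adjustment, 0 of the 8 probe sets were called. Over all probe sets, 585 were called higher and 832 lower. Both counts were 0 without the replicate block and by the methods' t-test, 377 and 443 after quantile normalization and 217 and 431 of 9173 genes with gene means (fewer units tested). Leaving out a replicate gave 272 to 590 higher and 267 to 747 lower. The F test of the replicate number called 6614 probe sets, 2078 to 5504 without a replicate (fewest without replicate 3) and 3185 with gene means. Of the 8 probe sets it called 5, and 2 to 5 without a replicate. The other pathway genes had 0 treatment calls under every alternative run for them. The cause of these changes was not tested. Fits without a replicate have fewer arrays. Dim signals cannot be told from absent ones in centred values.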
